A study of Mus musculus with 6 samples.

Results

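The genes described here are 10 that code for matricellular glycoproteins, secreted proteins that sit in the extracellular matrix and signal to cells more than they bear load: Postn (periostin), Tnc (tenascin C), the thrombospondins Thbs1, Thbs2, Thbs3 and Thbs4, Sparc and its relative Sparcl1, Spp1 (osteopontin), and Fn1 (fibronectin), which is a structural glycoprotein as well. They were taken by gene name from a table of 55401 genes, in which all 10 were found once, and all 10 passed the filter on low counts. The samples were heart RNA from C57BL/6 mice of 6 to 8 weeks. There were 3 control hearts and 3 hearts of mice given angiotensin II (Ang II), the peptide hormone that constricts vessels and raises blood pressure. Poly(A) RNA was sequenced with 1 library per heart. The dose, route and duration of Ang II and what the control mice received are not given in the sources used here. The series title concerns corynoline, but no library labelled with it was analysed here, so the comparison is Ang II against control.

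Matricellular proteins are made mostly when a tissue is injured or loaded. In the heart, resting fibroblasts that are activated by stretch or by transforming growth factor beta (TGF-β) secrete periostin and tenascin C while they lay down collagen. Thrombospondin 1 frees latent TGF-β from its complex and binds the receptors CD47 and CD36, thrombospondin 4 is a pressure-induced protein of the heart, SPARC binds collagen as it is processed, and osteopontin and fibronectin bind integrins of fibroblasts and macrophages.

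The sequence upstream of the start site is shown for 3 members whose values differed most in kind between libraries: Postn, which separated the Ang II hearts from each other, Spp1, which separated the control hearts from each other, and Thbs4, which separated the groups. RefSeq start windows on GRCm38.p6 were found for 7 of the 10 members; Thbs1, Sparcl1 and Fn1 had none. Each line gives the 250 bases before a start site, 5′ to 3′ on the gene's strand. Capitals mark TATAAA (the letters of a TATA box, at any position) or CAGAC (the core letters of a SMAD site, which reads GTCTG on the other strand). The windows are chr3:54360857-54361106 on the plus strand for Postn, chr5:104434861-104435110 on the plus strand for Spp1 and chr13:92794819-92795068 on the minus strand for Thbs4.
Postn: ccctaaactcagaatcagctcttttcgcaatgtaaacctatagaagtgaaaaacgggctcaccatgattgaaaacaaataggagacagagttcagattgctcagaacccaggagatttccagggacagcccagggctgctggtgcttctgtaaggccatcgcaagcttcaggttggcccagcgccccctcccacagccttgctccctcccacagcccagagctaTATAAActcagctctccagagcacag
Spp1: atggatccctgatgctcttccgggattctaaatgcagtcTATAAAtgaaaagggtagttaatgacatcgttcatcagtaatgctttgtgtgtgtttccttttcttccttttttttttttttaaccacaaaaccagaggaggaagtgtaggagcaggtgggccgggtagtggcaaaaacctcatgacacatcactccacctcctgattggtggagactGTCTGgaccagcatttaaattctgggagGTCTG
Thbs4: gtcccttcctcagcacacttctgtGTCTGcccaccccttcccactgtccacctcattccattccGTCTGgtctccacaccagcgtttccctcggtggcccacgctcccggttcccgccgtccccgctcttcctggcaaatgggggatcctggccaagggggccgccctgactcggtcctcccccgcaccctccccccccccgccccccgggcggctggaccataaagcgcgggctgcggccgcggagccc
The TATAAA of Postn began 26 bases before its start site, and that of Spp1 211 bases before. These are the RefSeq windows nearest to the table's gene starts; Postn, Spp1 and Tnc have a second RefSeq start each. Both strands were searched, and the matches marked do not overlap. TATAAA stood in 5 of the members' 10 windows, against 12.4% of 32851 mouse windows of the same length, and these belong to 4 genes (Postn, Spp1, Thbs2 and Tnc, whose 2 windows overlap and hold the same match). The Tnc match began 126 and 205 bases before its 2 start sites. The Thbs2 match lay on the opposite strand, 126 bases before. CAGAC stood in 7 of the 10, against 42.2% of windows, from all genes but Thbs3. TGANTCA, the letters bound by AP-1 factors, stood in 0 of the members' 10 windows and in 6.75% of all windows. These matches describe letters only and were set against no measurement of binding.

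On GRCm38, the table places Postn (ENSMUSG00000027750) on the plus strand at chr3:54361109-54391037, Tnc (ENSMUSG00000028364) on the minus strand at chr4:63959785-64020725, Thbs1 (ENSMUSG00000040152) on the plus strand at chr2:118111876-118127133. The other thrombospondins are Thbs2 (ENSMUSG00000023885) on the minus strand at chr17:14665500-14694235, Thbs3 (ENSMUSG00000028047) on the plus strand at chr3:89215180-89226837, Thbs4 (ENSMUSG00000021702) on the minus strand at chr13:92751590-92794818. The remaining members are Sparc (ENSMUSG00000018593) on the minus strand at chr11:55394500-55423183, Sparcl1 (ENSMUSG00000029309) on the minus strand at chr5:104079111-104113733, Spp1 (ENSMUSG00000029304) on the plus strand at chr5:104435118-104441050, Fn1 (ENSMUSG00000026193) on the minus strand at chr1:71585520-71653175. Values are over each whole gene.

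The libraries held 51202916 to 63564869 estimated counts, and the members took 0.0489% to 0.0780% of them. Genes on the mitochondrial chromosome took 35.8% to 47.6% of the counts and nuclear copies of such genes 13.1% to 18.8%. Both shares were highest in control replicate 1. Ang II replicate 1 stood apart: its correlation with the other libraries over the log2 level of all tested genes was 0.93 to 0.94, where those between the other 5 were 0.97 to 0.98. Its values also moved with gene length. In the quintile of tested genes with the shortest annotated exons (median 990 bases) its median log2 level lay 0.45 above the control mean, and in the longest quintile (median 9282 bases) it lay at -0.25, whereas the medians of Ang II replicates 2 and 3 stayed between -0.01 and 0.04 in every quintile. Cardiomyocyte markers were abundant (summed FPKM of 8 genes 5893 to 9501 in control and 6453 to 11020.3 in Ang II hearts), while 4 atrial markers summed to 0.276 to 0.471 and 0.887 to 2.38 FPKM. Of these, Myl7 held 0 to 49 counts a library. How much atrial tissue the samples held was not tested. FPKM is a level per transcript length and sequencing depth. In bulk tissue, fewer cells of a type and less RNA per cell cannot be told apart.

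**Figure D1:**
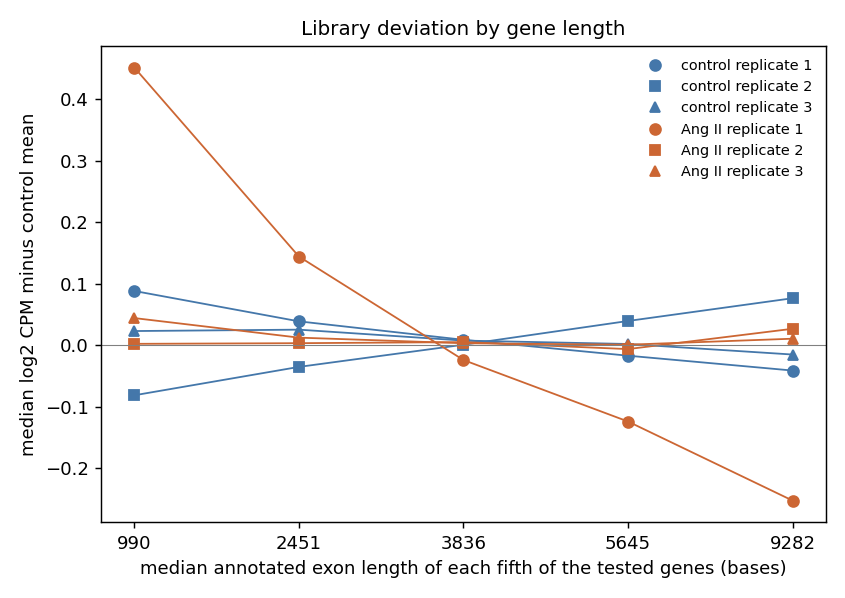
Median log2 CPM minus the control mean in each library (vertical axis), for quintiles of the tested genes ordered by annotated exon length (horizontal axis, median length in bases). Ang II replicate 1 runs from 0.45 to -0.25, and the other libraries stay between -0.08 and 0.09.

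Sparcl1 and Sparc transcripts were by far the most abundant of the 10 members. Together they held 90.8% to 95.2% of the summed FPKM of the 10 members in every library. That sum leaves out the 19 matricellular relatives given below, at 46.1 to 65.2 FPKM in control and 52.1 to 60.2 FPKM in Ang II hearts. In control hearts Sparcl1 stood at 97.5 ± 19.4 FPKM and Sparc at 64.8 ± 11.7 FPKM (mean ± SD, n = 3), and their libraries did not overlap. The other members followed far below: Fn1 at 2.25 ± 0.601 FPKM, Postn at 2.06 ± 0.439 FPKM, Thbs2 at 1.84 ± 0.179 FPKM and Spp1 at 1.5005 ± 1.25 FPKM. Of these 4, neighbours in the order overlapped between libraries. Thbs3 at 0.968 ± 0.229 FPKM overlapped with Spp1 and lay above Thbs4 (0.657 ± 0.0799 FPKM) in every control library, Thbs4 and Thbs1 (0.633 ± 0.213 FPKM) overlapped, and Tnc was lowest at 0.0733 ± 0.0437 FPKM. In Ang II hearts Sparcl1 and Sparc again led, and Thbs1, next to lowest in control, stood above Fn1 and Thbs2 at 2.05 ± 1.15 FPKM, with a spread that overlapped those of Spp1, Fn1 and Thbs2.

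**Figure D2:**
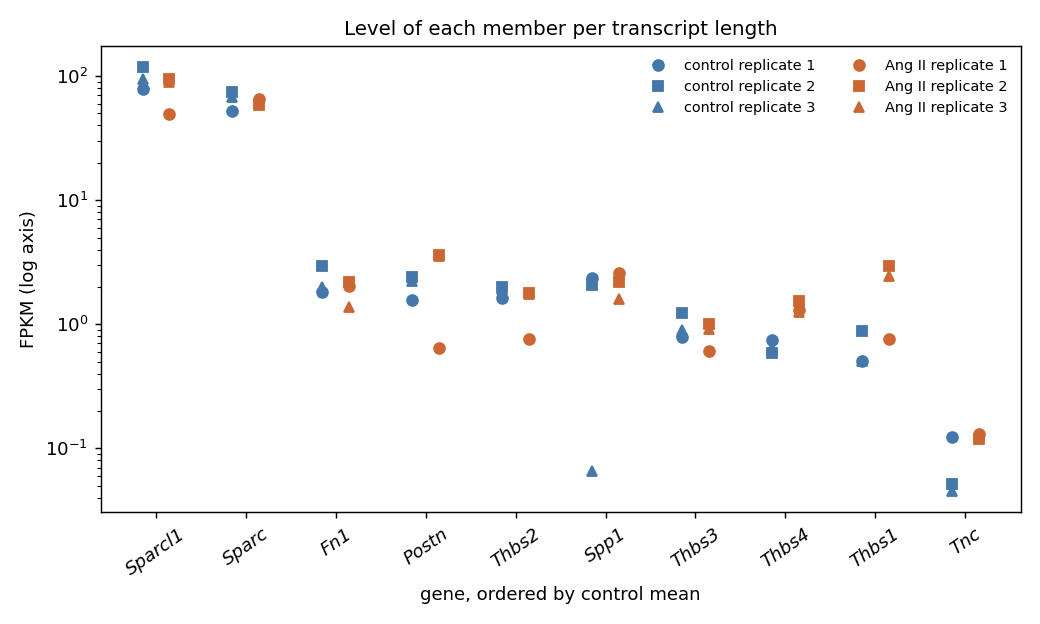
Deposited FPKM of each member in each library on a log axis, with genes ordered by the control mean. Sparcl1 and Sparc lie between 49.7 and 118 FPKM, the other members under 4 FPKM.

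In Ang II hearts, Thbs1 and Thbs4 had the largest differences from control and Postn the widest spread of log2 CPM among the Ang II hearts, and no member passed the test. By edgeR's quasi-likelihood test 0 of the 10 members had an adjusted p under 0.05 (Benjamini-Hochberg over 16759 genes), against 0.0358% of all tested genes. At an unadjusted p under 0.05 there were 2 members, both higher in Ang II hearts, where 7.51% of all genes stood in either direction and 3.57% higher. Of the 10 log2 changes, 5 were above 0 and 5 below (50.9% of all genes were above), with a median of 0.07 against 0.01 over all genes. The groups did not overlap in CPM (a count relative to the library size as scaled by edgeR) for 4 members, 2 higher (Thbs1 and Thbs4) and 2 lower (Thbs2 and Sparcl1). Over all tested genes 7.97% did not overlap and were higher and 9.21% were lower. On FPKM 1 member, Thbs4, did not overlap and was higher, against 7.76% of genes (11.8% in either direction). DESeq2 called 1 member higher, Thbs1, against 0.95% of genes, and limma on log2(FPKM + 0.5) called 0 of the 9 it tested, against 0.0248%. At an unadjusted p under 0.05 DESeq2 had 2 members, against 9.5% of genes, and limma 2, against 4.6%.

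**Figure D3:**
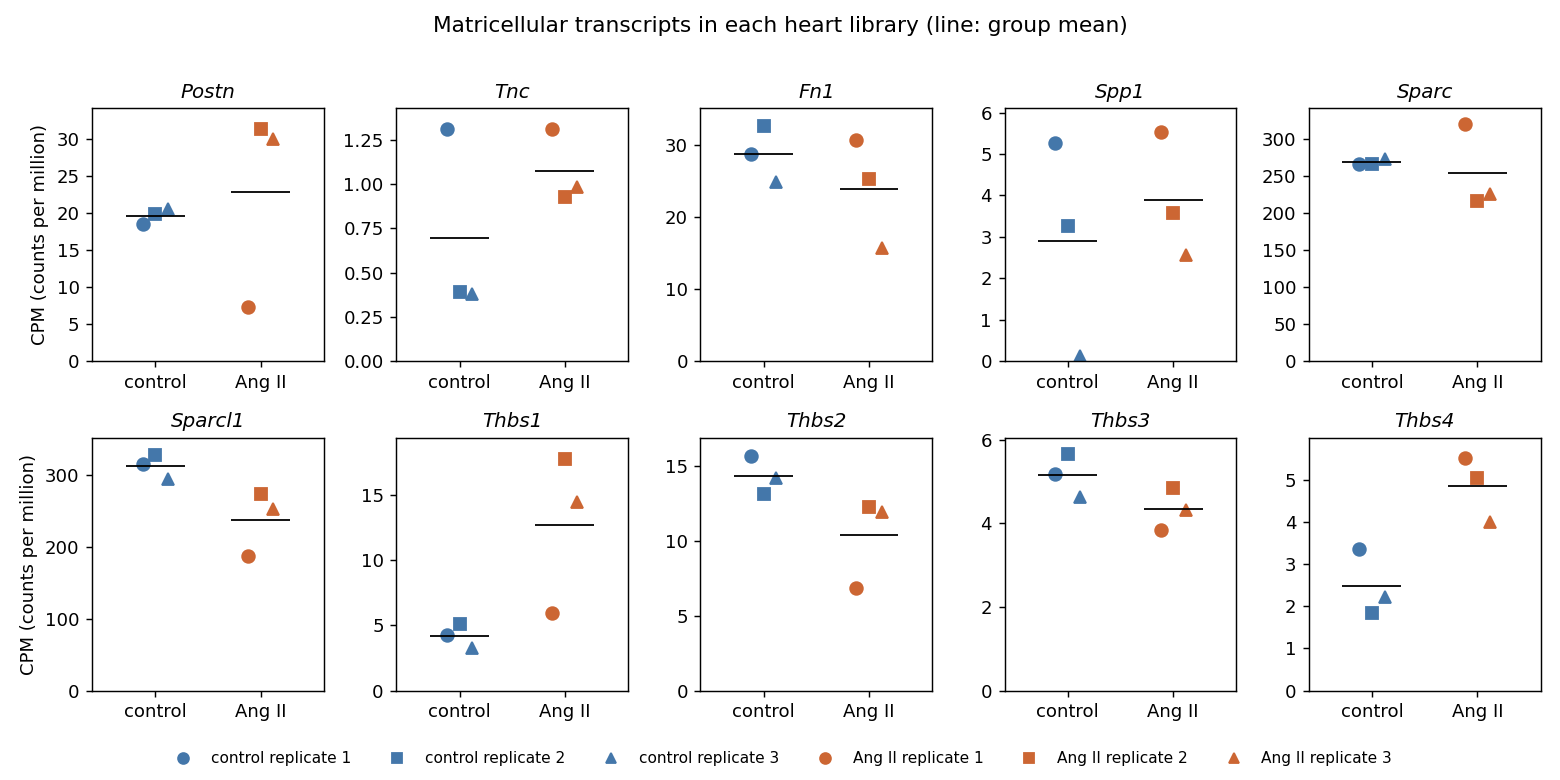
CPM of the 10 members in each of the 6 libraries, from 0, with a line at each group mean. Thbs1 and Thbs4 are higher in every Ang II library than in any control library, and Postn, Thbs2 and Sparcl1 are lowest in Ang II replicate 1.

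Postn marks fibroblasts that have left the resting state; periostin links collagen to tenascin C and to integrins. Its CPM was 18.5, 19.8 and 20.5 in the control hearts and 7.27, 31.3 and 30.0 in Ang II replicates 1, 2 and 3. The controls were tightly grouped, and the Ang II hearts fell on both sides of them, replicate 1 lowest and replicates 2 and 3 highest of all. The log2 change was 0.22 (SE 0.49; edgeR adjusted p = 0.923). It was 0.65 (SE 0.09) when Ang II replicate 1 was left out, with an edgeR adjusted p of 0.0623, just short of the threshold. It turned to -0.0694 (SE 0.55) without Ang II replicate 2 and to -0.0214 (SE 0.56) without Ang II replicate 3. Most of the 10 resting fibroblast markers lay below every control in that replicate, but not all. Dcn, coding for the proteoglycan decorin, stood there at 69.2 CPM against 279 to 297 CPM in control. Col15a1 stood at 7.71 against 38.6 to 51.5 CPM, and Pdgfra, Tcf21, Lum and Dpt were also below every control. Gsn, at 939 against 932 to 1006 CPM, and Ddr2 lay within the controls. Mfap5, at 41.3 against 14.6 to 15.7 CPM, and Pi16 lay above them. The part of fibroblast content in the Postn value was not tested. Postn belongs to the longest quintile of genes, with 8702 annotated exon bases; the part of length in its value was not tested.

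The genes given here as most like Postn were not matrix genes. Over 6 libraries and 8633 candidate genes, the highest Pearson correlations of log2 CPM with Postn included those of Usp9x (0.999), Abl1, Mta3 and Pik3r1 (each 0.997), which code for a deubiquitinase, a tyrosine kinase, a chromatin repressor subunit and a phosphoinositide kinase subunit. These 4 were lowest in Ang II replicate 1, and Usp9x stood there at 12.4 CPM against 46.3 and 43.2 CPM in the other Ang II hearts. These correlations rest on few libraries that share their depth and composition, and are a description. Among the members, Thbs2 was nearest to Postn (0.73) and Sparc the most opposite (-0.94).

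Tnc codes for tenascin C, a large hexameric glycoprotein made at sites of injury and mostly silent in the adult heart. It was the scarcest member, counted 60, 26 and 21 times in the control hearts and 57, 65 and 70 times in those given Ang II, or 1.31, 0.390 and 0.382 CPM against 1.31, 0.924 and 0.984 CPM. Control replicate 1 stood level with Ang II replicate 1, the highest Ang II heart, and the other two controls below all of them. The log2 change was 0.63 (SE 0.56; edgeR adjusted p = 0.811). Without control replicate 1 it was 1.47, with an unadjusted p of 0.0127 in edgeR and 0.905 after adjustment.

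Thrombospondins 1 and 2 assemble as trimers and 3 and 4 as pentamers; no member of either kind passed the test. Thbs1 had 4.22, 5.08 and 3.27 CPM in control and 5.93, 17.7 and 14.4 CPM in Ang II replicates 1, 2 and 3. Each Ang II heart lay above each control, replicate 1 only just. Its mean was 3.03-fold higher, with a log2 change of 1.598 (SE 0.41) and an edgeR adjusted p of 0.466, rank 229 of 16759 genes. On FPKM Ang II replicate 1 fell within the controls (0.755 against 0.511, 0.879 and 0.508 FPKM). Thbs1 was called higher by DESeq2 (adjusted p = 0.0220, a call made for 1.65% of genes), by limma's voom with quality weights per library (adjusted p = 0.0191; 2.08% of genes) and by edgeR without Ang II replicate 1 (log2 change 1.94, SE 0.21, adjusted p = 0.0390; 0.73% of genes).

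Thbs4 had 3.35, 1.85 and 2.22 CPM in control and 5.52, 5.05 and 4.01 CPM in Ang II hearts. Here all 3 Ang II libraries agreed, and the groups were apart on CPM and on FPKM (0.745, 0.588 and 0.638 against 1.298, 1.55 and 1.26 FPKM). The mean was 1.97-fold higher in Ang II hearts, with a log2 change of 0.98 (SE 0.28) and an edgeR adjusted p of 0.513. In all 17 other settings run, each library left out in turn included, its unadjusted p stayed under 0.05 and its adjusted p above, from 0.0992 to 0.965.

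Thbs2, the relative of Thbs1 that does not activate TGF-β and that binds matrix metalloproteinases, stood at 15.6, 13.2 and 14.2 CPM in control and 6.88, 12.3 and 11.9 CPM in Ang II hearts. All 3 Ang II libraries were lower than the controls, replicates 2 and 3 by little (edgeR: log2 change -0.46, SE 0.25, adjusted p = 0.712). Without replicate 1 the log2 change was -0.24 (SE 0.12). Thbs3 stood at 5.17, 5.66 and 4.64 CPM in control and 3.84, 4.85 and 4.31 CPM in Ang II hearts, which overlapped (edgeR: log2 change -0.25, SE 0.18, adjusted p = 0.771). Of its 4823 annotated exon bases 318 are shared with Mtx1 on the other strand, and the strandedness of the libraries is not given in the sources used here, so its counts are uncertain.

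Ratios within a library do not depend on how libraries are scaled. The FPKM of Thbs1 over that of Thbs2 was 0.311, 0.444 and 0.266 in control and 0.993, 1.66 and 1.39 in Ang II hearts, replicate 1 included. The FPKM of Thbs4 over that of Thbs3 was 0.949, 0.480 and 0.713 in control and 2.14, 1.54 and 1.38 in Ang II hearts. For both ratios the groups did not overlap, and the two-sided exact permutation test over samples gave p = 0.1, the smallest that 3 against 3 allows (0.2 after Benjamini-Hochberg adjustment over 8 ratios computed). Both ratios were chosen after the values were seen.

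Sparc codes for osteonectin, which binds collagen and tempers its assembly, and Sparcl1 (hevin) for a relative made by vessel and stromal cells. Sparc stood at 266, 267 and 273 CPM in control and 321, 217 and 226 CPM in Ang II replicates 1, 2 and 3. The Ang II hearts lay on both sides of the controls (edgeR: log2 change -0.08, SE 0.19, adjusted p = 0.930). Sparcl1 stood at 316, 328 and 295 CPM in control and 188, 274 and 253 CPM in Ang II hearts, all lower (edgeR: log2 change -0.39, SE 0.18, adjusted p = 0.689). The FPKM of Sparcl1 over that of Sparc was 0.758 in Ang II replicate 1 and 1.39 to 1.63 in the other 5 libraries. Without Ang II replicate 1 both genes were slightly lower, Sparc with a log2 change of -0.28 (SE 0.07) and Sparcl1 of -0.25 (SE 0.09), neither passing edgeR's test (adjusted p = 0.179 and 0.274). With that library left out, 5 members had an unadjusted p under 0.05 (Postn, Thbs1, Thbs4, Sparc and Sparcl1), against 15.4% of genes.

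Spp1 codes for osteopontin, a phosphoprotein of macrophages and activated fibroblasts that binds integrins and CD44. It was counted 241, 218 and 7 times in control replicates 1, 2 and 3, and 241, 251 and 183 times in Ang II replicates 1, 2 and 3. Control replicate 3 stood far below the other 5 libraries, at 0.127 CPM against 2.57 to 5.54 CPM. The log2 change of 0.43 (SE 0.98; edgeR adjusted p = 0.925) became -0.14 without that library. The unclassified gene Gm42793 shares 309 of the 1648 exon bases of Spp1 on the same strand, but held at most 2 counts in any library. The summed level of 9 macrophage markers in control replicate 3 (291 CPM) lay between those of the other controls (279 and 308 CPM). That of 6 epicardial and mesothelial markers was 2.8 CPM there, with Krt8 and Krt19 at 0 counts, against 8.5 and 9.2 CPM in the other controls and 3.7 to 4.2 CPM in Ang II hearts; its part in the Spp1 value was not tested.

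Fn1 codes for fibronectin, the scaffold on which fibroblasts assemble collagen and periostin. It stood at 28.8, 32.6 and 24.8 CPM in control and 30.8, 25.4 and 15.7 CPM in Ang II replicates 1, 2 and 3. Replicates 1 and 2 lay within the control range and replicate 3 below it (edgeR: log2 change -0.26, SE 0.26, adjusted p = 0.827). The log2 change was -0.0359 without that replicate and -0.48 without replicate 1. In Ang II replicate 3 the FPKM of Postn was 2.57 times that of Fn1, in replicate 2 1.66 times and in replicate 1 0.313 times, against 0.814 to 1.11 times in control hearts.

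**Figure D4:**
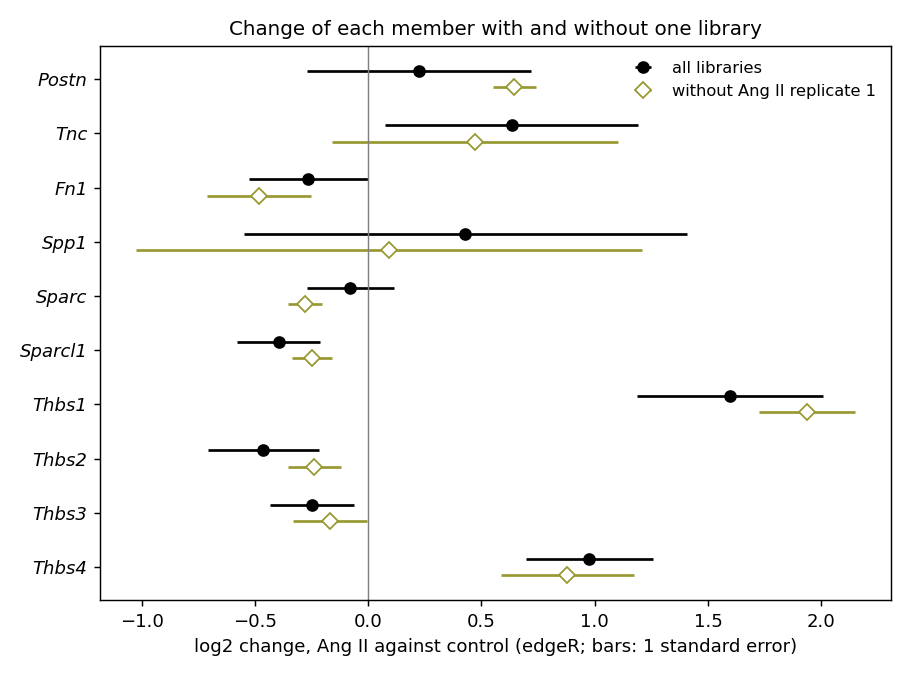
Log2 change of each member, Ang II against control, by edgeR with all 6 libraries (filled) and without Ang II replicate 1 (open), bars 1 standard error. Postn moves from 0.22 to 0.65 and Thbs1 from 1.598 to 1.94; Thbs4 lies at 0.98 and 0.88.

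Ang II replicate 1 was the lowest of all libraries for 4 members, Postn, Thbs2, Thbs3 and Sparcl1, a pattern seen in 31.6% of all tested genes. Of the 4 members in the longest quintile, its log2 CPM lay below the control mean for Postn (-1.43) and Thbs2 (-1.05) and above it for Tnc (1.18) and Fn1 (0.11). In the next quintile Thbs1 lay at 0.53 and Thbs3 at -0.42, and in the middle one Thbs4 at 1.21 and Sparc at 0.25. Sparcl1, in the second shortest quintile, lay at -0.73, and Spp1, in the shortest with 1648 exon bases, at 2.09. The part of gene length in these values was not tested.

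Receptors, relatives and partners of these proteins were counted from 4 lists of 73 genes, of which 66 were tested. Of these, Ccn2 alone passed edgeR's test, a call lost in 9 of 17 other settings, while 10 stood higher and 7 stood lower at an unadjusted p below 0.05, against 3.57% and 3.94% of all genes. Together these 17 fell to 9, 9 and 10 without control replicates 1, 2 and 3. They fell to 6 and 12 without Ang II replicates 2 and 3. Without Ang II replicate 1 they were 20, where 15.4% of all genes stood at that p, against 7.51% with all libraries. That share was not computed with another library left out. Genes given below beyond the naming rule were chosen after their values were seen.

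Activation markers of fibroblasts were the list with most differences. Of 19 tested, 17 had log2 changes above 0 (50.9% of all genes), with a median of 0.34 against 0.01 over all genes. That count rests on Ang II replicate 1: without it 13 of 20 were above 0. Their median was then 0.25, against -0.01 over all genes. With all libraries 6 stood higher and 2 stood lower at an unadjusted p below 0.05, against 3.57% and 3.94% of all genes, and Ccn2 passed edgeR's test. Ccn2, the connective tissue growth factor that cells make in response to TGF-β, stood at 44.9, 50.2 and 45.5 CPM in control and 165, 188 and 177 CPM in Ang II hearts (edgeR: log2 change 1.91, SE 0.14, adjusted p = 0.0398). Its log2 change stayed between 1.87 and 1.97 in 17 other settings, but the call was lost in 9: limma on FPKM with each of 3 pseudocounts, the replicate block (adjusted p = 0.203), and leaving out any 1 library but Ang II replicate 1 (adjusted p up to 0.421). DESeq2 called 4 genes of the list, Ccn2, Ltbp2, Scx and Cilp, all higher, a call made for 0.95% of all genes. Ltbp2, a binding protein of fibrillin, stood at 1.82, 1.86 and 1.76 CPM and at 4.21, 4.45 and 3.46 CPM (edgeR: log2 change 1.15, SE 0.20, adjusted p = 0.270). Both were separate in all libraries, Ang II replicate 1 included. The other 4 higher members were Scx, a tendon and fibroblast transcription factor (log2 change 1.14), Cilp (0.68), Mfap4 (0.67) and Pdlim7 (0.53), and the lower ones Runx1 (-1.07) and Lrrc17 (-0.69). Cthrc1 had too few counts to be tested with all libraries (0, 4 and 0 in control, 0, 34 and 23 in Ang II replicates 1, 2 and 3). Without Ang II replicate 1 it was tested in edgeR, with a log2 change of 4.07. Its unadjusted p was then 0.0253, where 15.4% of all genes stood under 0.05, and its adjusted p 0.251.

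Of 17 partners in matrix assembly, all tested, 7 had log2 changes above 0 and 10 below (median -0.05), and 0 passed edgeR's test, with 1 up and 3 down at an unadjusted p below 0.05. Serpinh1, the collagen chaperone HSP47, gave 0.69 (SE 0.28) and Col1a1, the main chain of type I collagen, -0.40 (SE 0.14). Col3a1 and the procollagen-cleaving enzyme gene Bmp1 were the other lower members (-0.35 each). Receptors had 10 of 17 log2 changes above 0 (median 0.13), with 0 called, 2 up and 1 down at an unadjusted p below 0.05. The higher ones were Itga5, the α5 chain of the fibronectin receptor, at 33.5, 42.0 and 40.9 CPM in control and 42.8, 63.99 and 63.3 CPM in Ang II hearts (edgeR: log2 change 0.55, SE 0.20, adjusted p = 0.608), and Cacna2d1, a calcium channel subunit that binds thrombospondins (0.53, SE 0.19). Itga4 was the lower one (-0.77).

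Of 19 matricellular relatives 13 were tested, 6 with log2 changes above 0 and 7 below (median -0.01). In edgeR's test 0 passed, with 1 up and 1 down at an unadjusted p below 0.05. Comp, the remaining thrombospondin, stood at 0.897, 1.28 and 0.327 CPM in control and 1.22, 2.35 and 2.70 CPM in Ang II hearts (edgeR: log2 change 1.32, SE 0.54, adjusted p = 0.658), which overlapped. Tnxb, a tenascin that organises collagen fibrils, stood at 77.0, 78.3 and 75.6 CPM and at 60.6, 53.7 and 57.7 CPM, lower in each Ang II heart (edgeR: log2 change -0.43, SE 0.13, adjusted p = 0.529). Ibsp, Mepe and Dspp, bone and tooth genes of the osteopontin family, had 0 counts in every library.

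Markers of the cells that make these proteins were set beside them. At an unadjusted p under 0.05 in edgeR stood 7.51% of all genes with all libraries and 15.4% without Ang II replicate 1. The counts of markers at that p, here and in the next paragraph, are to be read against these shares. In edgeR's test 0 of 10 resting fibroblast markers passed, with 2 up and 1 down at an unadjusted p below 0.05, and their summed FPKM ran from 323 to 445 in control and 295 to 410.3 in Ang II hearts. The higher ones were Mfap5 (log2 change 0.91, SE 0.28) and Pi16 (0.36, SE 0.14), the lower one Tcf21 (-0.53). Gsn, the most abundant, gave -0.14. On CPM the fibroblast markers summed to 1504, 1471 and 1546 in control and 1232, 1423 and 1400 in Ang II hearts, lower in each. Gsn made up most of these sums (991, 932 and 1006 CPM in control and 939, 857 and 859 CPM in Ang II hearts). In Ang II replicates 2 and 3, Dcn, Lum, Pdgfra, Pi16 and Mfap5 lay above every control, and Tcf21, Gsn, Dpt, Ddr2 and Col15a1 below. Of 8 endothelial markers 7 had log2 changes below 0 (median -0.36), with 0 passing and 4 lower at an unadjusted p under 0.05. Kdr (-0.77) and Vwf (-0.59) led, both called by DESeq2 (adjusted p = 0.00246 and 0.0145), a call made for 1.65% of genes. All 8 were lower at that unadjusted p in edgeR without Ang II replicate 1. Their summed FPKM was 113 to 155 in control and 108 to 119 in Ang II hearts. Cdh5, the most abundant, gave -0.43 and Egfl7 0.23. On CPM the endothelial markers summed to 812, 800 and 769 in control and 682, 597 and 598 in Ang II hearts, lower in each. Beside them Sparcl1 gave -0.39, and the part of endothelial content in it was not tested. Of 9 macrophage markers 0 passed and 1 was lower at an unadjusted p under 0.05, Adgre1 (-0.88), and 5 without Ang II replicate 1. Their summed level was 467 CPM in Ang II replicate 1 against 220 and 243 CPM in the other Ang II hearts and 279 to 308 CPM in control, with Lyz2 (log2 change 0.01) and C1qa (0.43) the most abundant and Cd163 at -0.47.

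Among 7 smooth muscle markers 0 passed and 0 stood at an unadjusted p under 0.05 (summed FPKM 58.4 to 80.2 and 73.1 to 84.7), with Cnn1 at a log2 change of 1.37 (SE 0.58), Tagln at 0.50, Acta2 at 0.13 and Smtn at -0.07. Platelets store thrombospondin 1. Of 6 platelet markers tested 0 passed and 1, Ppbp, was lower at an unadjusted p under 0.05 (-2.03, SE 0.55; 3 without Ang II replicate 1), Gp9 gave -2.95 and Pf4 0.10, and the list's summed FPKM was 11.2 to 17.0 in control and 9.42 to 21.2 in Ang II hearts. On CPM they summed to 23.9, 9.02 and 11.2 in Ang II replicates 1, 2 and 3 and 13.5 to 15.8 in control hearts. Pf4 made up most of these sums (17.7, 5.89 and 7.90 CPM in the 3 Ang II hearts, in that order). With all libraries 3 of the 6 tested had log2 changes above 0 and 3 below. Without Ang II replicate 1, 5 were below 0 and 1 above, with a median of -1.34. The 1 above was Gp1ba, at 0.582 to 1.53 CPM in control and 1.24, 1.41 and 1.80 CPM in Ang II hearts. The part of platelet content in the Thbs1 values was not tested. Valve, tendon and cartilage markers, cells that express Thbs4 and Comp, summed to 4.50 to 5.59 and 4.61 to 8.44 FPKM with Tnmd, Col2a1 and Chodl at 0 counts in every library, and neither tested gene, Cytl1 (log2 change 0.51) or Prg4 (-0.20), passed or stood at an unadjusted p under 0.05. Of 8 cardiomyocyte markers 0 passed and 0 stood at an unadjusted p under 0.05 (5, all higher, without Ang II replicate 1), and all had log2 changes above 0, among them Myh6 (0.15), Actc1 (0.28), Pln (0.34) and Actn2 (0.37). Of 4 epicardial markers tested 0 passed, with Wt1 at -0.88 (SE 0.36), Krt8 at -1.02 (SE 1.23) and Krt19 at -1.45 (SE 1.25).

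**Figure D5:**
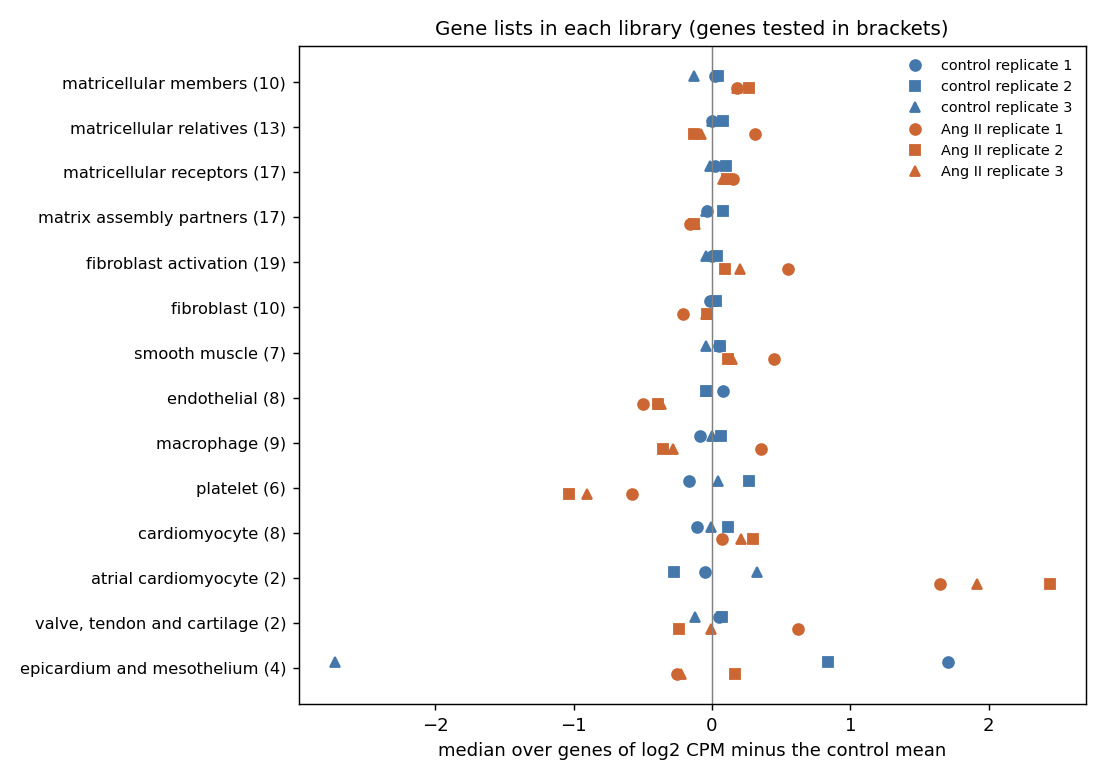
Median over each list's tested genes (number in brackets) of log2 CPM minus the control mean, per library. Fibroblast activation medians are 0.55, 0.10 and 0.20 in Ang II replicates 1, 2 and 3, and resting fibroblast medians -0.21, -0.03 and -0.04.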

How the data were processed

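Heart poly(A) RNA of 6 mice was compared, 3 control and 3 given Ang II, grouped by sample title. The p-values measure the spread between these libraries, 1 per heart. Per the submitters' processing notes, Bowtie 0.12.2, HISAT2 2.0, StringTie 1.3.0 and build mm8 were involved; their roles are not given in the sources used here. Gene coordinates in the table equal those of GENCODE M21 (GRCm38) for 94.2% of 55141 shared IDs, so that build is used. The deposited table gives the authors' FPKM values, with 0.0001 for 0, and the authors' estimated count values, whole numbers that were taken as rounded estimates.

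The main test was edgeR's two-sided quasi-likelihood test (version 4.0.16, R 4.3.3) after filterByExpr and TMM scaling, over 16759 genes; standard errors come from the log2 change and its F statistic. DESeq2 1.42.0, limma 3.58.1 on log2(FPKM + 0.5) over 12095 genes and voom with quality weights were run beside it, with other pseudocounts, scalings and filters, the replicate number as a block, and each library left out. The fit was checked on simulated counts. Libraries of a group differed by a chi-square of 31.6 to 442 per degree of freedom, so none is a copy of another. Genes were named by a rule: all members, the 2 smallest p of each list and any called, the 2 most abundant of each cell marker list, and 5 genes most like Postn with a mean of at least 5 CPM, of which 1 is not reported here. The members and lists were chosen with earlier results of these data known. Protein sequences planned for the members were not analysed here. Plots used Python 3.11.15 and matplotlib 3.10.9.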

Additional observations from a re-analysis of the deposited data

How the results depend on the processing

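Over all 17 other settings the log2 changes of Thbs1 (0.83 to 1.94), Thbs4 (0.51 to 1.26), Tnc (0.34 to 1.47, not tested on FPKM), Thbs2 (-0.60 to -0.24), Thbs3 (-0.34 to -0.0942), Sparcl1 (-0.50 to -0.25) and Fn1 (-0.59 to -0.0359, near 0 without Ang II replicate 3) kept their sign. Left-out libraries turned 3 members, Postn, Sparc and Spp1. Postn gave -0.0694 without Ang II replicate 2, -0.0214 without Ang II replicate 3, and up to 0.65. Sparc ran from -0.28 to 0.0241, the latter without Ang II replicate 2, and Spp1 from -0.14 to 1.18. The causes were not tested. Members called were 0 in the main test, with 2 at an unadjusted p under 0.05; they were 1 by DESeq2 and 1 by voom with weights, each time Thbs1, and 0 to 1 with a library left out. At an unadjusted p under 0.05 there were 6 members by voom with weights, against 20.5% of all genes, and 2 to 5 with a library left out. All genes called numbered 6, and 276 by DESeq2, 348 by voom with weights, 12 without a filter, 3, 2 and 3 by limma on FPKM with pseudocounts of 0.5, 0.1 and 1, and 0 to 129 with a library left out (0 without any of the 3 controls or Ang II replicate 3, 2 without Ang II replicate 2). Genes of the 4 lists at an unadjusted p under 0.05 numbered 17, and 4, 5 and 4 by limma with those pseudocounts and 6 to 20 with a library left out. Of all genes, 7.51% stood at that p in the main test. The share was 4.6% by limma with a pseudocount of 0.5 and 15.4% by edgeR without Ang II replicate 1.

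The replicate numbers were tried as a block, though the sample titles give no pairing of the hearts and the values did not settle it. Same-numbered libraries had deviations correlated at 0.14, 0.17 and -0.06. Control replicates 1 and 2 correlated best with their own number, and control replicate 3 did not. With the replicate block 0 genes were called, 11 list genes stood at an unadjusted p under 0.05, and Postn gave -0.0180; 2 members stood at an unadjusted p under 0.05, as without it. Other scalings moved the median log2 change of all genes to 0.03 at most. Depth limits Tnc, with 21 to 70 counts a library, and Spp1, with 7 in control replicate 3.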

Other observations

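A few genes near the matricellular family separated Ang II replicates 2 and 3 from the other 4 libraries as Postn did; they were chosen after their values were seen. Spock2, a proteoglycan of the SPARC family, stood at 4.42, 5.53 and 4.69 CPM in control and, for Ang II replicates 1, 2 and 3, at 2.85, 10.8 and 11.1 CPM. It was called by edgeR without replicate 1 (log2 change 1.17, adjusted p = 0.0440; log2 change 0.76 and an unadjusted p of 0.158 with it). Fbn1, the fibrillin that forms microfibrils, went the other way, at 23.3, 27.4 and 25.5 CPM in control and 32.4, 13.0 and 14.1 CPM in those given Ang II (log2 change -0.91 without replicate 1, edgeR adjusted p = 0.0457; -0.36 with it). With replicate 1 left out, 0.73% of all tested genes were called.

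Atrial myosin light chain Myl4 stood at 1.69, 1.23 and 1.15 CPM in control and 3.22, 4.39 and 4.31 CPM in Ang II hearts (edgeR: log2 change 1.56, SE 0.26, adjusted p = 0.249), and Sln, the sarcolipin gene of atria, at 0, 0 and 0.0727 CPM and 0.230, 0.569 and 0.253 CPM, with 0, 0 and 4 counts in control. Myl4 was called higher by DESeq2 (adjusted p = 3.34e-05, a call made for 1.65% of genes) and by voom with quality weights (adjusted p = 0.0139; 2.08% of genes), and Sln by neither. Myl7, another atrial light chain, had too few counts to be tested. The groups did not overlap for Myl4 or Sln.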
